A study of Homo sapiens with 42 samples.

Results

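The 51 genes described here encode proteins of the spliceosome's small nuclear ribonucleoproteins (snRNPs) and of the helicases and the Prp19 complex that work with them. They were chosen by symbol, not by any measured value, and each symbol matched 1 of the 58243 gene IDs in both count tables. The human cells were K562, an established erythroleukaemia line from chronic myeloid leukaemia that carries the Bcr-Abl1 kinase. Cells were left untreated (CTRL), given 1 µM imatinib (IM, a Bcr-Abl1 inhibitor), 5 µM JTE-607 (JTE, an inhibitor of the 3′-end endonuclease CPSF73) or 110 mM KCl, a hyperosmotic shock. Poly(A) mRNA was sequenced in CTRL, after IM or JTE for 1, 6 and 18 h and after KCl for 1 and 3 h, and rRNA-depleted nuclear RNA in CTRL, IM 1h, IM 18h, JTE 1h and KCl 1h. Each of the 14 groups held 3 libraries labelled as biological replicates, all from 1 cell line.

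The spliceosome removes introns from pre-mRNA. U1 and U2 snRNPs recognise the ends of the intron, and the tri-snRNP of U4, U6 and U5 then joins, after which helicases remodel the assembly so that it becomes catalytic. A ring of Sm proteins sits on U1, U2, U4 and U5 RNA, an LSm ring sits on U6 RNA, and a minor spliceosome with U11 and U12 removes a rare class of introns. In a dividing leukaemia line these are housekeeping genes, expressed in every library.

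Total counts ran from 16439848 to 62953314 in the 27 mRNA libraries and from 16175394 to 25103205 in the 15 nuclear libraries. Levels are given as CPM (counts divided by the normalised library size and scaled alike in all libraries), with SD over 3 libraries. A gene was called when the Benjamini-Hochberg adjusted p of edgeR's quasi-likelihood test was under 0.05 and the log2 fold change was beyond 0.6 in size. All 51 genes passed the filter on low counts, among 18095 genes tested in mRNA and 21929 in nuclear RNA. Counts at an unadjusted p under 0.05 are given without the share of all genes. The labelled cell type was checked by markers: HBE1 (embryonic globin) stood at 1121 ± 350.4 CPM in mRNA CTRL, CD2 (T cells) was at 0 in all 3 of those libraries, and MALAT1, a nuclear RNA, stood at 2662 ± 12.7 CPM in mRNA CTRL and 13201 ± 2807 in nuclear CTRL. EPCAM, known as an epithelial marker, was also expressed, at 91.1 ± 4.14 CPM in mRNA CTRL.

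The summed level of the 51 genes was lower after 18 h of imatinib in both fractions. In mRNA CTRL the sum was 9609, 9121 and 8392 CPM, and in mRNA IM 18h it was 7344, 7539 and 7531 CPM. The IM 18h libraries all lay below the CTRL libraries, as they did in nuclear RNA, where CTRL averaged 9639 ± 134 CPM and IM 18h 7594 ± 221 CPM (SD, n = 3). In bulk RNA, fewer cells of a type and less RNA per cell cannot be told apart, and CPM gives a share of each library, not an amount per cell. The erythroid marker HBE1 moved the other way in the same libraries, at 4234 ± 1134 CPM in mRNA IM 18h and 4214 ± 559 CPM in nuclear IM 18h. Its part in the result was not tested. HBE1 does not stand for every erythroid marker. GATA1 had CTRL means of 166 CPM in mRNA and 221 CPM in nuclear RNA. Its highest library in any group held 204 CPM in mRNA and 233 CPM in nuclear RNA. Other erythroid markers are not described here.

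**Figure D1:**
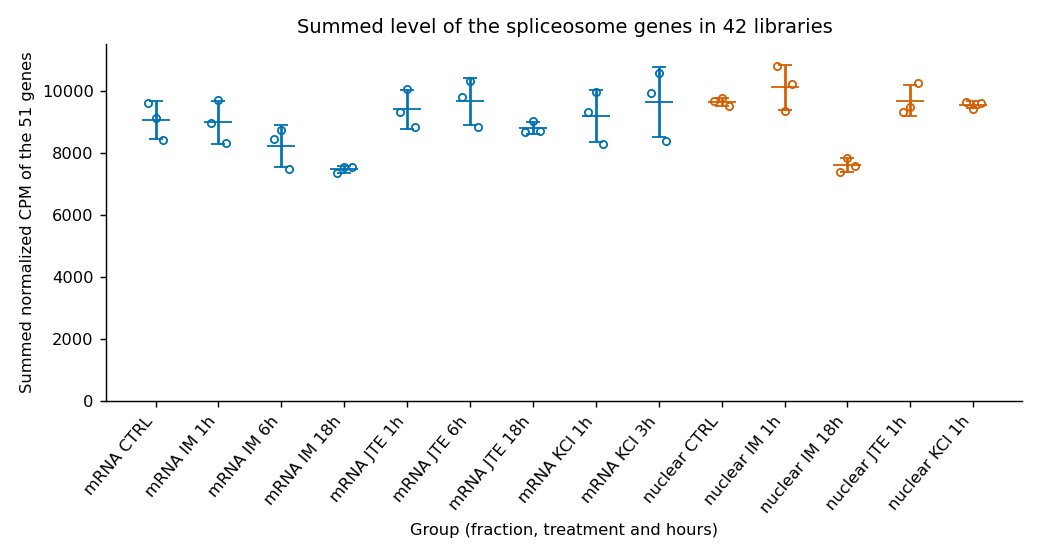
Summed normalised CPM of the 51 genes (vertical axis from 0) in each of the 14 groups, with open circles for libraries, a bar for the mean and whiskers for the SD (n = 3); mRNA is blue and nuclear RNA orange. The 3 IM 18h libraries lie below the 3 CTRL libraries in both fractions, at 7344 to 7539 CPM in mRNA.

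After 18 h of imatinib 14 of the 51 genes fell in mRNA and none rose. That is 27.5% of the genes, beside 13.2% of all genes tested called lower and 17.2% called higher. The median log2 fold change was -0.33 over the 51 genes and 0.04 over all genes tested, and 44 of the 51 (86.3%) lay below 0, beside 47.9% of all genes. With the adjusted p alone, at any fold, 29 genes (56.9%) were lower and 1, CDC5L, was higher, beside 21.0% and 22.8% of all genes. For 34 genes (66.7%) every IM 18h library lay below every CTRL library, which held for 26.1% of all genes tested. Without CTRL replicate 1 the count of called genes was 8, and SF3B4, SNRPE, DHX15, DHX16, SF3B5 and EFTUD2 were the calls lost. The share of all genes in that fit is not given here, so the 8 cannot be set beside the 13.2% of the full fit. With the replicate number as a block SF3B5 alone lost its call, which left 13 genes.

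**Figure D2:**
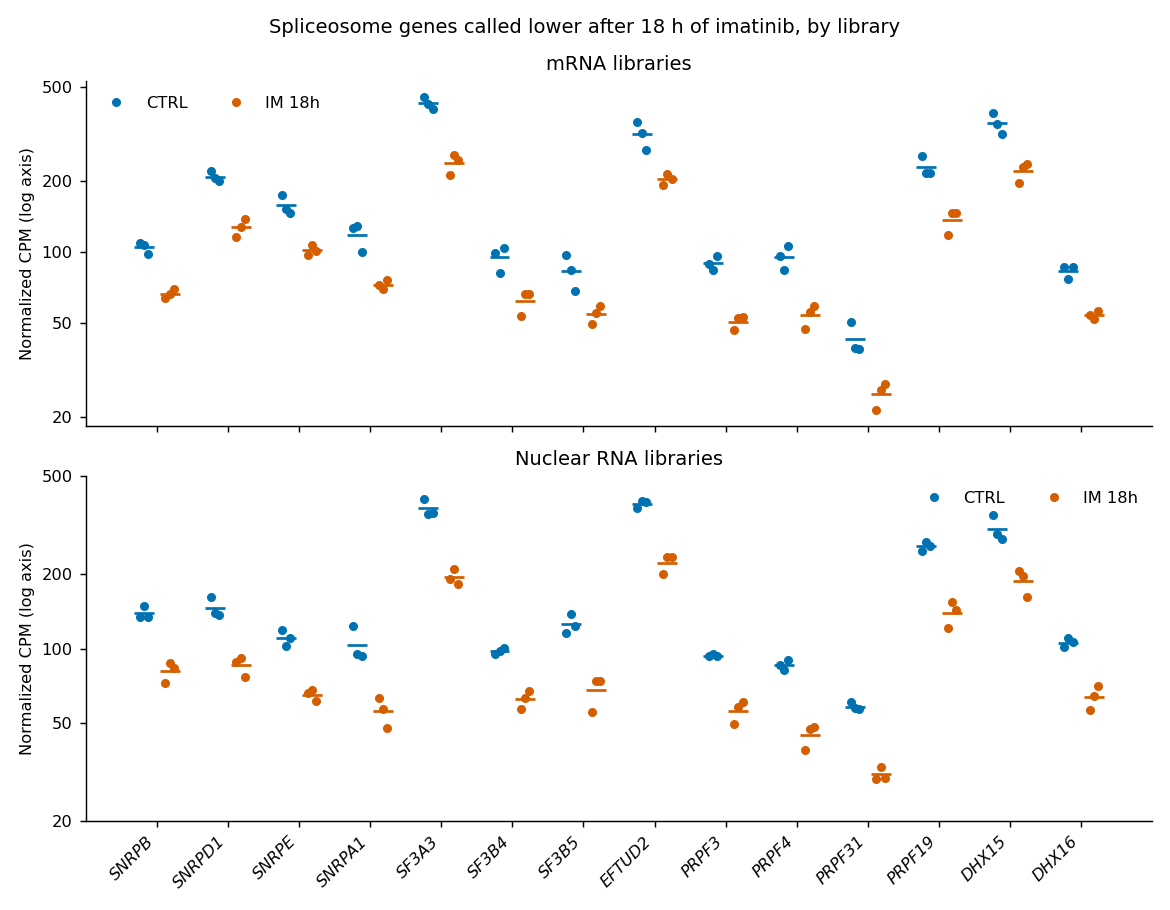
Normalised CPM (log axis) of the 14 genes called lower in mRNA after 18 h of imatinib, with points for libraries and short lines for the means, in mRNA (top) and nuclear RNA (bottom). CTRL and IM 18h libraries do not overlap for any of the 14 genes in either fraction, and SF3A3 has the largest fall in mRNA, from 429 to 239 CPM.

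In the U4/U6 and tri-snRNP group 3 of 6 genes fell, with a group median of -0.55. PRPF3, which with PRPF4 holds the base-paired U4 and U6 RNAs, stood at 89.1, 83.8 and 96.8 CPM in CTRL and 46.8, 52.6 and 52.9 CPM in IM 18h. Every treated library was well under every control, and the gene fell by 0.82 on the log2 scale (SE 0.12, adjusted p = 5.02e-06 in edgeR). Its partner PRPF4 moved from 96.1, 83.7 and 107 CPM to 47.5, 56.0 and 59.0 CPM, a log2 fold change of -0.82 (SE 0.13, adjusted p = 2.36e-05 in edgeR). PRPF31, which binds the U4 RNA and is needed for the tri-snRNP to form, moved from 50.5, 39.2 and 38.9 CPM to 21.4, 26.2 and 27.7 CPM (log2 fold change -0.77, SE 0.18, adjusted p = 0.00146 in edgeR). Of PRPF31's exonic bases 32.0% are shared with TFPT or PRPF31-AS1 on the other strand, and the counting used no strand, so its level is uncertain. The other 3 genes of the group, SART1, SNRNP27 and PRPF38A, had log2 fold changes of -0.12 to -0.33, and of these only PRPF38A passed the adjusted p (edgeR, 0.00285).

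All 6 genes of the Sm ring core passed the adjusted p in the downward direction, and 3 of them were called. The Sm proteins form the heptameric ring that is loaded onto the spliceosomal RNAs in the cytoplasm. SNRPD1 had the largest fall of the group, from 219.8, 206 and 201 CPM to 116, 128 and 138 CPM (log2 fold change -0.71, SE 0.12, adjusted p = 5.08e-05 in edgeR). SNRPB (log2 fold change -0.65) and SNRPE (-0.63) were the others called, while SNRPD3 (-0.57) and SNRPF (-0.50) stayed inside the fold limit, and SNRPD2 was smallest in size at -0.29. Of SNRPB's 1278 exonic bases 256 are shared with the gene ENSG00000256566 on the same strand, so its level is uncertain. The summed level of the 6 genes was 907 ± 46.5 CPM in mRNA CTRL and 624 ± 37.4 CPM in IM 18h (SD, n = 3).

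Of 14 genes of the U2 snRNP and U2AF, 4 fell: SF3A3, SNRPA1, SF3B4 and SF3B5. SF3A3, a subunit of the SF3a complex that joins U2 to the branch site region, had the largest fall of all 51 genes (ENSG00000183431, GRCh38 chromosome 1, 37956975 to 37990921, minus strand). Its CTRL libraries held 456, 424 and 406 CPM and its IM 18h libraries 213, 258 and 246 CPM, a log2 fold change of -0.84 (SE 0.11, adjusted p = 1.46e-06 in edgeR). Its partners in the same complex were not called, as SF3A1 was at -0.13 (SE 0.14) and SF3A2 at 0.01 (SE 0.13), both with overlapping libraries. SNRPA1, a protein that binds a stem-loop of U2 RNA, went from 126, 129 and 100.5 CPM to 72.7, 69.9 and 76.1 CPM (log2 fold change -0.70, SE 0.15, adjusted p = 0.000474 in edgeR). In SF3b, the complex that grips the branch point, SF3B4 (-0.61) and SF3B5 (-0.60) sat just past the fold limit, while SF3B2, SF3B3 and SF3B6 ranged from -0.26 to -0.35.

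SF3B1, the largest SF3b protein, held 413, 464 and 360.0 CPM in CTRL and 438, 409 and 442 CPM in IM 18h. The libraries of the 2 groups overlapped, and the log2 fold change was 0.06 (SE 0.14, adjusted p = 0.754 in edgeR). U2AF2, which reads the polypyrimidine tract, was at -0.60 (SE 0.18, adjusted p = 0.0102 in edgeR) but inside the limit of 0.6. Its partner U2AF1, which reads the AG at the 3′ splice site, is described with the KCl data because its counts are uncertain.

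U5 snRNP carries the proteins of the catalytic core, and 1 of its 5 genes fell. EFTUD2, the U5 GTPase, went from 358, 321 and 270.4 CPM to 193, 215 and 204 CPM (log2 fold change -0.63, SE 0.18, adjusted p = 0.00584 in edgeR). PRPF8, the scaffold at the heart of the spliceosome, held 816, 763 and 689 CPM in CTRL and 764, 701 and 701 CPM in IM 18h. These libraries overlapped, at a log2 fold change of -0.07 (SE 0.09, adjusted p = 0.582 in edgeR). SNRNP200, the helicase that unwinds U4 from U6, stood at 0.12 (SE 0.09) and PRPF6 at -0.03 (SE 0.12), while SNRNP40 was at -0.34 (SE 0.08, adjusted p = 0.00108 in edgeR), under the fold limit.

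In the Prp19 complex, which stays with the spliceosome through catalysis, PRPF19 and CDC5L went opposite ways. PRPF19, the ubiquitin ligase that names the complex, fell from 255, 218 and 216 CPM to 118, 146 and 146 CPM (log2 fold change -0.75, SE 0.15, adjusted p = 0.000238 in edgeR). CDC5L, a core subunit, was at 142, 151 and 146 CPM in CTRL and 173, 165 and 172 CPM in IM 18h. All 3 treated libraries were above all 3 controls, and it passed the adjusted p at a log2 fold change of 0.22 (SE 0.07, adjusted p = 0.0202 in edgeR) without passing the fold limit. PLRG1, the other subunit, was at -0.20 (SE 0.13) with overlapping libraries.

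DEAH-box helicases drive the remodelling steps, and 2 of 4 fell. DHX15, which takes apart the spent lariat spliceosome, went from 389, 351 and 316 CPM to 197, 230.0 and 236 CPM (log2 fold change -0.67, SE 0.12, adjusted p = 8.01e-05 in edgeR). DHX16, which acts just before the first catalytic step, was at -0.62 (SE 0.11). DHX8, which releases the mRNA, was at -0.28 (SE 0.09) and DHX38, which acts between the catalytic steps, at 0.07 (SE 0.12).

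No gene was called in the U1 snRNP, LSm ring and U11/U12 groups at IM 18h in mRNA by edgeR. At an unadjusted p under 0.05 the counts were 1 of 3, 5 of 7 and 1 of 3 genes. SNRPC, the U1 protein that steadies the pairing of U1 with the 5′ splice site, came nearest, from 215, 205 and 185 CPM to 128, 135 and 140.2 CPM (log2 fold change -0.58, SE 0.12, adjusted p = 0.000262 in edgeR). The other U1 genes, SNRNP70 (-0.10, SE 0.18) and SNRPA (-0.01, SE 0.19), had overlapping libraries. In the LSm ring LSM7 was lowest, from 48.1, 46.8 and 45.1 CPM to 33.9, 34.7 and 36.9 CPM (log2 fold change -0.41, SE 0.12, adjusted p = 0.00659 in edgeR). LSM8, the subunit that sets the nuclear U6 ring apart from the cytoplasmic one, was the 1 LSm gene above 0 (0.24, SE 0.11, adjusted p = 0.072 in edgeR). In the U11/U12 group SNRNP48 went from 49.4, 49.9 and 46.0 CPM to 34.1, 34.5 and 39.7 CPM (log2 fold change -0.42, SE 0.11, adjusted p = 0.00414 in edgeR), while SNRNP35 was at 0.11 (SE 0.11).

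Nuclear RNA came from separate libraries and held the same genes. After 18 h of imatinib 16 genes fell and none rose in nuclear RNA, which is 31.4% of the 51 beside 15.4% of all genes called lower and 17.2% called higher. The median log2 fold change was -0.40 over the 51 genes and 0.00 over all genes. All 14 genes called in mRNA were among the 16, which makes the overlap 100% of the mRNA calls and 87.5% of the nuclear calls. The same overlap over all genes is not given here, so it cannot be called particular to these genes. The additional calls were SNRPC (log2 fold change -0.65, SE 0.10) and U2AF2 (-0.76, SE 0.11). SNRPC lost its nuclear call in 2 of the fits that left out 1 library. With upper quartile scaling the nuclear calls of SNRPC (-0.532), SF3B4 (-0.535) and DHX15 (-0.58) were lost. With the adjusted p alone 34 genes (66.7%) were lower and CDC5L was again the 1 that was higher, beside 23.1% and 22.6% of all genes. For 37 genes (72.5%) the IM 18h libraries lay below every CTRL library, beside 27.1% of all genes.

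The largest nuclear falls were those of PRPF4, SF3A3, PRPF31, PRPF19, SF3B5 and SNRPA1. PRPF4 went from 85.8, 82.2 and 89.6 CPM to 38.7, 47.2 and 48.1 CPM (log2 fold change -0.94, SE 0.10, adjusted p = 4.13e-07 in edgeR). SF3A3 went from 405, 351 and 354 CPM to 192, 211 and 182 CPM (log2 fold change -0.92, SE 0.10, adjusted p = 4.96e-07 in edgeR). Every treated library was below every control for both genes, as it was for PRPF31 (-0.91), PRPF19 (-0.90), SF3B5 (-0.89) and SNRPA1 (-0.89). CDC5L stood at 110.4, 90.0 and 83.0 CPM in nuclear CTRL and 149, 125 and 108 CPM in IM 18h, where the groups overlapped (log2 fold change 0.43, SE 0.15, adjusted p = 0.0234 in edgeR). SF3B1 at 0.08 (SE 0.18) and PRPF8 at -0.11 (SE 0.09) had overlapping libraries in nuclear RNA too.

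**Figure D3:**
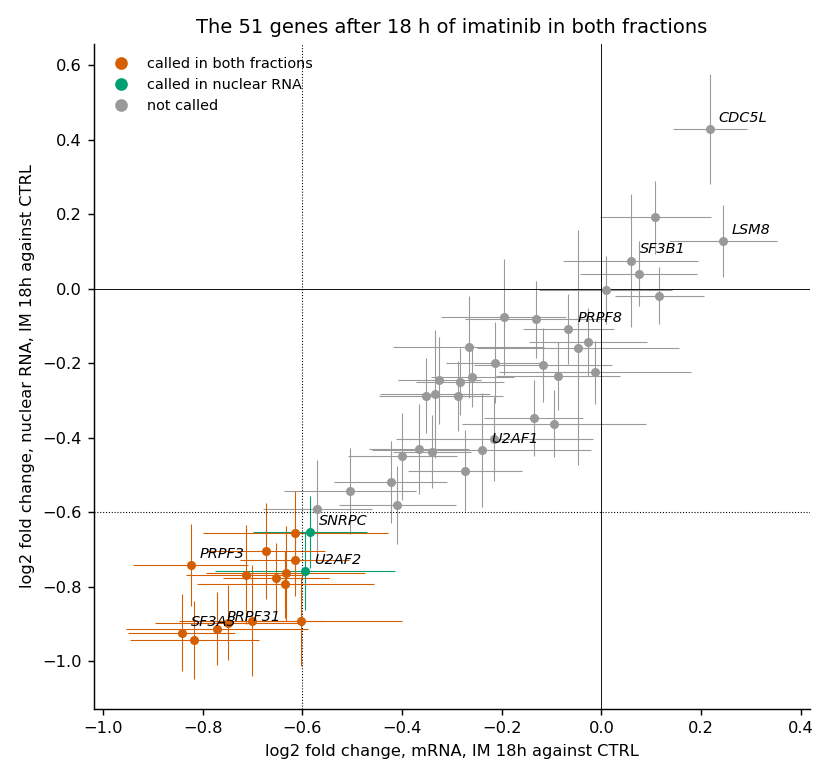
Log2 fold change at IM 18h against CTRL of each of the 51 genes in mRNA (horizontal axis) and nuclear RNA (vertical axis), with bars for the SE and dotted lines at -0.6. The 14 orange genes were called in both fractions, SNRPC and U2AF2 (green) in nuclear RNA, and CDC5L lies at the top right with 0.22 and 0.43.

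Whether the response differed between the fractions was examined through the interaction term of 1 edgeR fit over both. No member was called for IM 1h, IM 18h, JTE 1h or KCl 1h, beside 0.0%, 0.0901%, 0.0605% and 0.668% of all genes. At an unadjusted p under 0.05 the counts of members were 0, 0, 1 and 0, and DESeq2 also called 0 in each. The median difference of the 51 genes at IM 18h, nuclear minus mRNA, was -0.03 on the log2 scale. The mRNA came from whole cells, which include the nuclei, and the fractions differed in RNA selection.

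In mRNA the median change of the 51 genes was lower at each later time of imatinib. At IM 1h no gene was called by edgeR or DESeq2, 0 genes had an unadjusted p under 0.05, and the median was 0.00, beside 0.0166% of all genes called. At IM 6h no gene was called by edgeR or DESeq2 either, beside 9.94% of all genes. Of the 51 genes 42 lay below 0, with a median of -0.10 against 0.04 over all genes. An unadjusted p under 0.05 in edgeR was reached by 9, of which CDC5L was higher (log2 fold change 0.16). The shares of all genes for the 42 and the 9 are not given here. The adjusted p alone was passed by 4 genes at 6 h (7.84%), all lower, beside 7.85% of all genes lower and 8.17% higher. They were PRPF4 (log2 fold change -0.54), PRPF3 (-0.50), DHX15 (-0.43) and SF3A3 (-0.33). The 14 genes called at 18 h in mRNA had log2 fold changes of -0.10 to 0.08 at 1 h, and all 14 lay below 0 at 6 h, from -0.54 to -0.10. The 3 comparisons share their CTRL libraries, and the 14 genes were chosen by their values at 18 h. Between IM 6h and IM 18h, which share no library, edgeR and DESeq2 called no gene, beside 4.41% of all genes. An unadjusted p under 0.05 in edgeR was reached by 22 genes, and no share of all genes is given for it. With the adjusted p alone 10 genes (19.6%) were lower at 18 h than at 6 h and none was higher, beside 4.69% and 3.66% of all genes. The 10 were led by SNRPE (-0.54), SF3A3 (-0.52) and SNRPA1 (-0.51). In nuclear RNA at IM 1h no gene was called by edgeR or DESeq2, 1 had an unadjusted p under 0.05, and the background was 0.0456%.

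**Figure D4:**
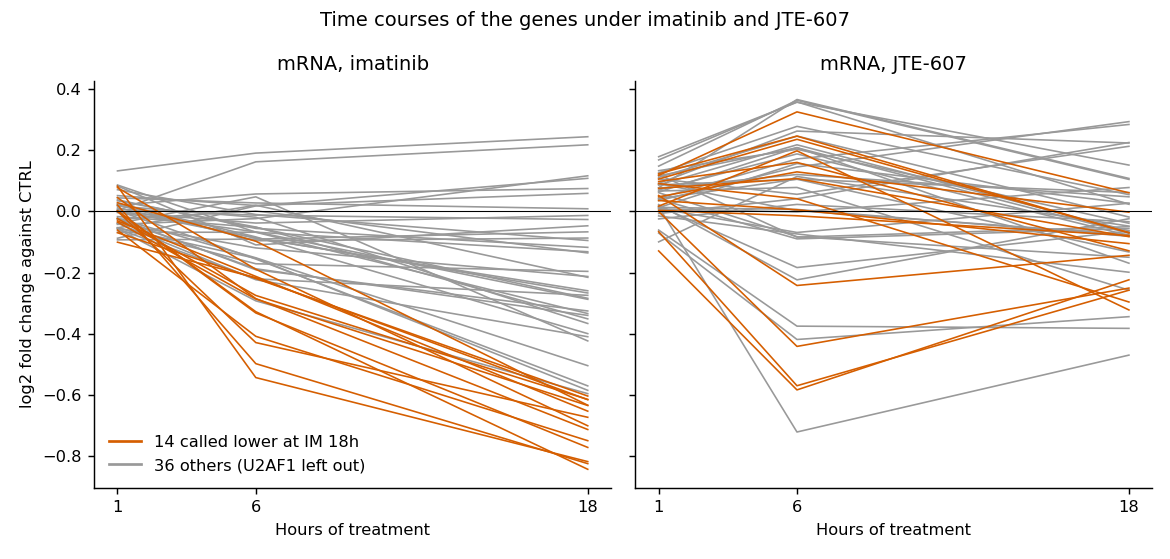
Log2 fold change against CTRL in mRNA after 1, 6 and 18 h of imatinib (left) and JTE-607 (right), 1 line per gene; the 14 genes called lower at IM 18h are orange and 36 others grey, with U2AF1 left out. Under imatinib the orange lines lie below 0 at 6 h, from -0.54 to -0.10. Their lower place at 18 h follows from the choice of these genes by their 18 h values. Under JTE-607 the orange lines lie on both sides of 0 at 6 h.

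JTE-607 blocks the endonuclease that cuts pre-mRNA at the poly(A) site. At JTE 1h edgeR called no gene in mRNA, beside 0.851% of all genes, with 1 gene, U2AF1, at an unadjusted p under 0.05 and 1 gene called by DESeq2. In nuclear RNA at JTE 1h no gene was called by edgeR or DESeq2 and 2 had an unadjusted p under 0.05, beside 8.52% of all genes called. At JTE 6h SF3A2 was the 1 gene that fell, which is 1.96% of the 51 beside 6.47% of all genes called lower and 6.73% called higher. SF3A2 held 102, 93.1 and 89.6 CPM in CTRL and 45.9, 76.8 and 49.9 CPM in JTE 6h, with replicate 2 nearer to the controls (log2 fold change -0.72, SE 0.13, adjusted p = 0.000366 in edgeR). Without JTE 6h replicate 1 its log2 fold change was -0.58 and no gene was called. Of SF3A2's exonic bases 12.7% are shared with PLEKHJ1 on the other strand.

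The adjusted p alone was passed by 4 genes in each direction at JTE 6h, beside 8.9% of all genes higher and 9.16% lower. PRPF3 (log2 fold change -0.58), DHX16 (-0.57) and SNRNP35 (-0.42) joined SF3A2 among the lower ones. SNRPB2 (0.36), a U2 protein, SF3B6 (0.36), which touches the branch point adenosine, LSM3 (0.36) and SNRNP40 (0.25) were the higher ones. At JTE 18h edgeR and DESeq2 called no gene, beside 5.39% of all genes, and 10 had an unadjusted p under 0.05. SF3A2 was then at -0.47 (SE 0.13, adjusted p = 0.0275 in edgeR) and PRPF38A at 0.28 (SE 0.08, adjusted p = 0.0315 in edgeR). Between JTE 6h and JTE 18h no gene was called by edgeR or DESeq2, beside 13.4% of all genes, and 13 had an unadjusted p under 0.05. No share of all genes is given for these 13 or for the 10 at JTE 18h.

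At 18 h the imatinib and JTE-607 libraries could be compared directly, at doses of 1 µM and 5 µM. In mRNA 10 genes (19.6%) were lower after imatinib than after JTE-607 and none was higher, beside 13.6% and 16.7% of all genes. They were SNRPD1, SNRPC, SNRPA1, SF3A3, SF3B4, PRPF3, PRPF4, PRPF31, PRPF38A and PRPF19, with log2 differences, IM minus JTE, of -0.60 to -0.77. SF3A3 held 404, 417 and 405 CPM in JTE 18h beside 213, 258 and 246 CPM in IM 18h (log2 difference -0.77, SE 0.11, adjusted p = 4.44e-06 in edgeR). SNRPA1 held 126, 125 and 119 CPM in JTE 18h, all above its IM 18h libraries (log2 difference -0.76, SE 0.15, adjusted p = 0.000207 in edgeR). The count rests in part on IM 18h replicate 1, without which 3 genes, SNRPC, SNRPA1 and SF3A3, were called.

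Few of these genes were called after KCl. At KCl 1h 1 gene fell in mRNA and 1 in nuclear RNA (1.96% each), and both times it was U2AF1. The background was 2.94% of all genes called lower and 2.51% higher in mRNA, and 8.5% lower and 15.3% higher in nuclear RNA. At KCl 3h U2AF1 and SNRNP35 fell (3.92%), beside 7.33% of all genes lower and 4.55% higher. Between KCl 1h and KCl 3h edgeR and DESeq2 called no gene, beside 3.29% of all genes, and 4 had an unadjusted p under 0.05. SF3B1 and PRPF8 were not called in any comparison of either fraction.

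The values of U2AF1 stand on few reads. The annotated gene (ENSG00000160201) lies on chromosome 21 at 43092956 to 43107587, minus strand, and build GRCh38 holds a near-identical copy of it elsewhere on that chromosome. Reads that match both places are not unique and were not counted, so the level is uncertain. U2AF1 had 106, 64 and 96 counts in mRNA CTRL (5.84, 3.35 and 5.35 CPM), and 21, 91 and 56 counts in KCl 1h (1.09, 1.52 and 1.30 CPM). The KCl libraries were all below the controls in CPM, at a log2 fold change of -1.86 (SE 0.23, adjusted p = 8.96e-06 in edgeR). In KCl 3h it held 1.47, 1.75 and 1.63 CPM (log2 fold change -1.58, SE 0.23). The second copy had 96, 47 and 82 counts in mRNA CTRL and log2 fold changes of -1.37 at KCl 1h and -1.33 at KCl 3h, both called. In nuclear RNA, U2AF1 went from 138, 139 and 138 counts in CTRL to 32, 34 and 43 in KCl 1h, or from 6.44 ± 0.346 to 1.79 ± 0.262 CPM (log2 fold change -1.84, SE 0.17, adjusted p = 6.79e-08 in edgeR). At JTE 1h U2AF1 held 2.31, 2.95 and 2.67 CPM in mRNA (44, 57 and 50 counts), all below the CTRL libraries, at a log2 fold change of -0.87 (SE 0.23, adjusted p = 0.0649 in edgeR). It was not called there, but was called with the replicate number as a block. In nuclear RNA at JTE 1h it was at -0.46 (SE 0.15, adjusted p = 0.0608 in edgeR), and in mRNA it was at -0.14 (SE 0.22) at JTE 6h and -0.35 (SE 0.22) at JTE 18h, where the groups overlapped. At IM 18h U2AF1 was not called in mRNA (-0.24, SE 0.22) or in nuclear RNA (-0.43, SE 0.15).

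SNRNP35, a protein of the U11/U12 snRNP, held 15.7, 15.5 and 18.2 CPM in mRNA CTRL and 7.98, 9.02 and 8.61 CPM in KCl 3h. All 3 treated libraries lay below all 3 controls (log2 fold change -0.95, SE 0.11, adjusted p = 2.04e-06 in edgeR). At KCl 1h it was at -0.41 in mRNA (SE 0.11, adjusted p = 0.0233 in edgeR) and -0.28 in nuclear RNA (SE 0.10, adjusted p = 0.04 in edgeR). Of its exonic bases 40.1% are shared with RILPL1 on the other strand, more than for any other of the 51 genes, so its level is uncertain.

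**Figure D5:**
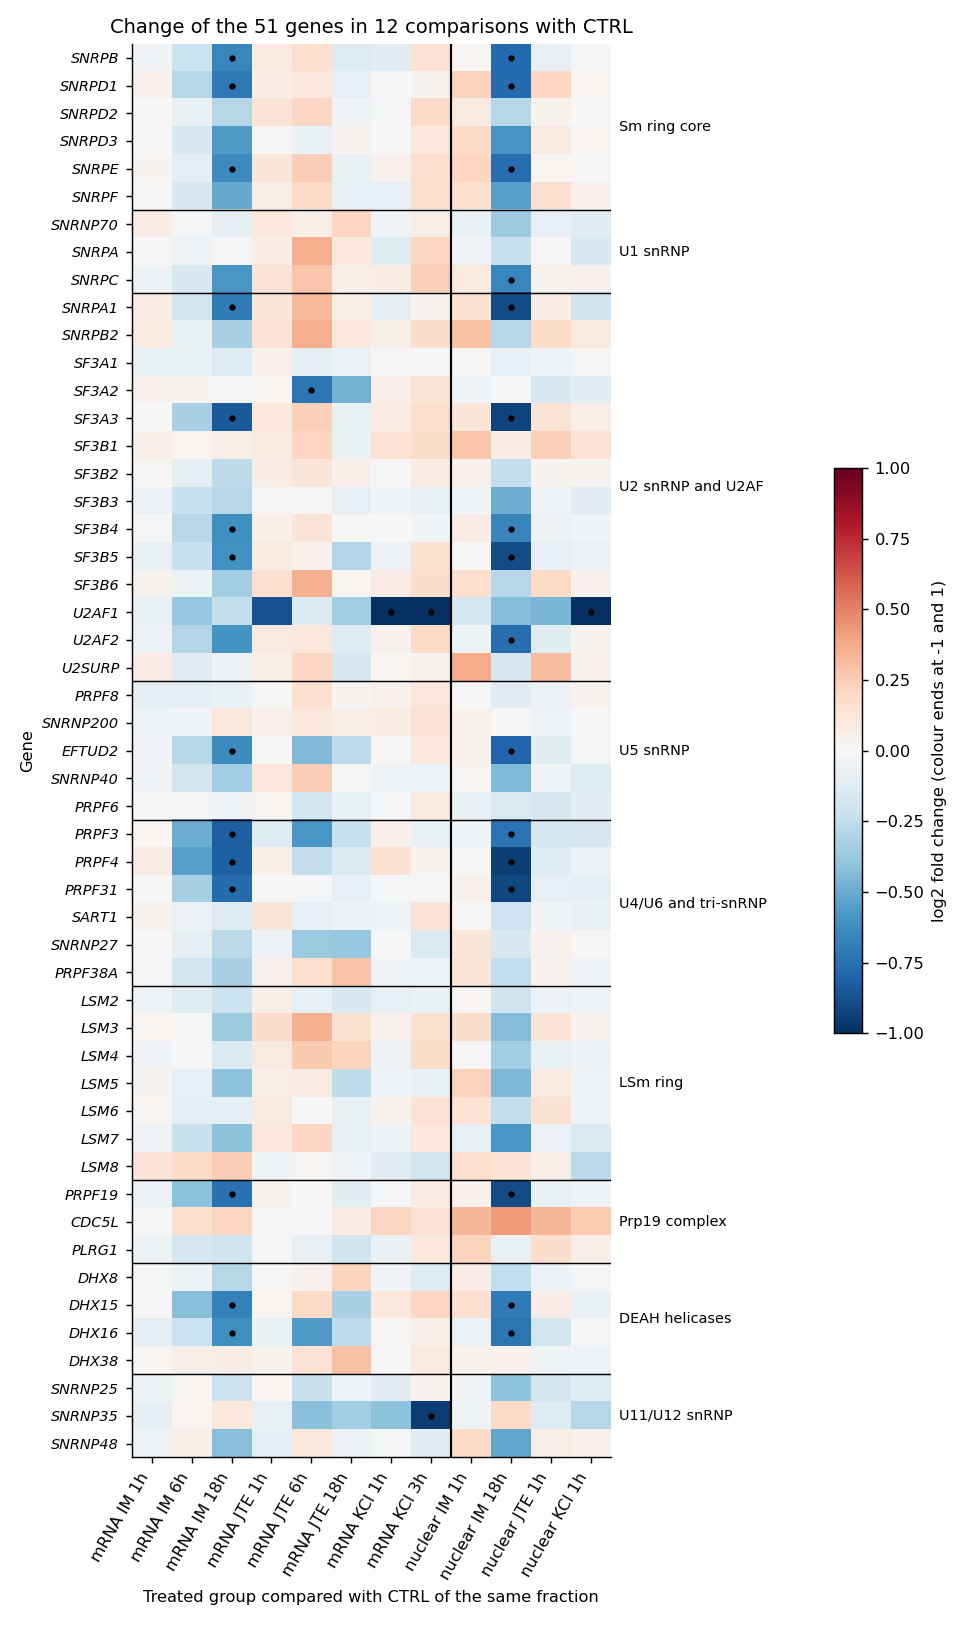
Log2 fold change against CTRL of the same fraction for the 51 genes (rows, by role) in 12 comparisons (columns), blue for lower and red for higher, with black dots for called genes; colours end at -1 and 1. The dots sit mainly in the IM 18h columns, 14 in mRNA and 16 in nuclear RNA, and outside them only at SF3A2, U2AF1 and SNRNP35.

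Genes that make or complete these particles were read from further lists. Of 12 genes for Sm and LSm assembly and import, 6 fell at IM 18h in mRNA, beside 13.2% of all genes called lower. All 12 lay below 0, beside 47.9% of all genes, and the median was -0.62. COPRS, PRMT5 and WDR77 fell the most. PRMT5 and WDR77 belong to the methylosome that methylates Sm proteins before they are loaded. PRMT5 went from 165, 146 and 142 CPM to 58.8, 70.8 and 79.0 CPM (log2 fold change -1.12, SE 0.14, adjusted p = 1.87e-06 in edgeR), COPRS was at -1.26 (SE 0.16) and WDR77 at -1.11 (SE 0.27). The groups did not overlap for these 3 genes. Of 47 other spliceosome proteins 8 fell and none rose, beside 13.2% of all genes called lower and 17.2% higher, with a median of -0.33. PHF5A, a further SF3b subunit, was lowest at -0.81 (SE 0.10), followed by TXNL4A, a U5 protein, at -0.74 (SE 0.10) and SF1, the first reader of the branch point, at -0.73 (SE 0.17).

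Among 7 other proteins of the U12-type spliceosome 1 rose and 1 fell at IM 18h in mRNA, and the median was 0.24. Of all genes tested 17.2% were called higher and 13.2% lower, which is also the background for the LSm and Sm-like list below. RNPC3, which binds U11 and U12, rose from 15.7, 14.8 and 11.5 CPM to 28.3, 24.6 and 31.0 CPM (log2 fold change 1.00, SE 0.18, adjusted p = 9e-05 in edgeR), and SCNM1 fell by 0.68 on the log2 scale (SE 0.14). Of 8 other LSm and Sm-like genes 7 were tested, and LSM10 and LSM11, which form the Sm-like ring of the U7 snRNP for histone mRNA, went opposite ways. LSM10 went from 32.8, 29.2 and 29.1 CPM to 12.7, 13.6 and 15.6 CPM (log2 fold change -1.12, SE 0.13, adjusted p = 3.53e-07 in edgeR). LSM11 went from 23.4, 31.5 and 26.1 CPM to 68.0, 43.9 and 47.2 CPM (log2 fold change 0.97, SE 0.16, adjusted p = 3.79e-05 in edgeR). LSM12, which has an LSm domain, was called at -0.75 (SE 0.10).

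Some properties were compared between the 14 genes called at IM 18h in mRNA and the other 37, as a description with no test. Exonic length had a median of 3641 bases in the 14 and 4323 in the 37, and the number of merged exons a median of 13 and 9. The median level in mRNA CTRL was 112 CPM in the 14 (42.8 to 429) and 120 CPM in the 37 (4.85 to 756). The 51 genes lie on 17 chromosomes, with 8 on chromosome 19 and 6 each on chromosomes 1 and 6. Per kilobase of exon, SNRPC had the highest value in mRNA CTRL at 158 CPM per kb, ahead of SNRPD2 at 135, and U2AF1 the lowest at 0.436. The length used was that of all annotated exons merged, so the order depends on the annotation. U2AF1, which also sets the 4.85 CPM, cannot be ranked by abundance, because reads that match its copy were not counted.

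RefSeq promoter windows on GRCh38.p14, 250 bases before to 50 after the gene's start, were given for 46 of the 51 genes and searched on both strands. The E-box CACGTG was in 8.7% of the members' windows (EFTUD2, SF3B1, SNRNP48 and U2SURP), beside 10.0% of 11219 windows of genes tested in mRNA. The letters CCGGAAGT, known as the core of sites for ETS factors, were in 15 of 46 windows (32.6%), beside 8.57% of those of tested genes and 5.57% of all 18966 windows matched to the count tables. That motif was chosen after its share in these genes had been seen. It was in 5 of 12 windows of the genes called at IM 18h in mRNA (41.7%) and in 10 of 34 of the other members (29.4%), and all 15 matches lay 9 to 241 bases before the RefSeq start. The 5 matches in called genes are shown because they let the shared letters be read in place, with up to 11 bases on either side and CCGGAAGT, or ACTTCCGG where it was read on the other strand, in capitals. The sites of SF3A3 (chr1:37990073-37990102), SF3B4 (chr1:149927811-149927840), SNRPA1 (chr15:101295344-101295373) and SNRPB (chr20:2470812-2470841) are on the minus strand and that of SNRPE (chr1:203861597-203861624) on the plus strand.
SF3A3: agtcccggggcACTTCCGGcactcgcggaa
SF3B4: ccgtcttcgccCCGGAAGTggaagtcgtgc
SNRPA1: cgcgcgccacgACTTCCGGcaagaacgccc
SNRPB: agtgagctggaCCGGAAGTaggtttctacc
SNRPE: ttctttattCCGGAAGTtgctctcagag
The matches begin 69, 26, 114, 41 and 241 bases before the RefSeq start in that order. The RefSeq start lies inside the gene as the count tables have it by 899 bases for SF3A3, 541 for SF3B4, 34 for SNRPA1, 64 for SNRPB and 244 for SNRPE, so the windows do not start where the counted genes do.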

How the data were processed

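The authors trimmed and deduplicated reads with fastp, aligned them with STAR, keeping unique hits and introns of up to 10000 bases, and counted read pairs over exons with featureCounts without a strand option. The deposited tables hold raw counts per Ensembl gene, made on GRCh38.p14 per the labels; the annotation release is not given in the sources used here. Gene symbols matched 41836 of the 58243 gene IDs. From those counts, edgeR 4.0.16 (R 4.3.3) was run with filterByExpr, TMM scaling and a robust quasi-likelihood fit, 1 per fraction with 1 term per group, and p-values were adjusted over all genes tested; the call limits, 0.05 and a log2 fold change of 0.6, are those of the authors' methods, which used DESeq2. Interactions came from 1 fit over both fractions. The steps were tested on simulated data. Alternatives were DESeq2 1.42.0, other scalings, no filter, no fold limit, thinned counts, the compared libraries only, the replicate number as a block, and leaving out each library. The replicate numbers paired the nuclear libraries (correlations of same-numbered deviations with CTRL of 0.235 to 0.891 over genes) and not the mRNA libraries as the columns number them (-0.368 to 0.877). The read totals in the study's supplement number mRNA CTRL 1 and 2 the other way round from the count columns; with these exchanged, correlations were 0.055 to 0.877 and all were over 0.1 in 7 of 8 groups. The block was therefore also fitted with that exchange, chosen after seeing the data; libraries are named here by their columns. The study describes the replicates as separate biological experiments. Members, lists and tests were chosen with earlier results of these data known. Genes named are up to 6 called members with the largest rise or fall per comparison with CTRL, the largest change of each role group at IM 18h in mRNA, SF3B1, PRPF8 and U2AF1 throughout, up to 4 called members in other contrasts, and up to 3 called genes each way per further list; a few more are named as counts of 5 or fewer or as partners of a named gene, after their values were seen. SMN1 and SMN2, near-identical copies among the 6 assembly genes called, are not described. Protein sequences were not analysed here. Introns over 10000 bases in 9 members (SNRPD1, SNRPD3, SNRPF, SF3B1, U2SURP, PRPF8, LSM3, CDC5L and DHX15) could not be spanned by reads.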

Additional observations from a re-analysis of the deposited data

Results flagged for a closer look

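The test between imatinib and JTE-607 at 18 h in mRNA called 10 of the 51 genes (19.6%), all lower after imatinib. Of all genes tested 13.6% were called lower and 16.7% higher. This difference between treatments of the same length is given for a closer look. The doses were 1 µM and 5 µM, and leaving out 1 library moved the count between 3 and 12.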

How the results depend on the processing

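No call changed direction under these alternatives. Of the members not called at IM 18h, upper quartile scaling changed the sign of 4 in mRNA (PRPF6, PRPF8, SNRPA and U2SURP) and 5 in nuclear RNA, and SF3A2, near 0, SNRPA, DHX38 or SF3B1 changed sign in mRNA under others. Without the fold limit the counts of called genes were 30 at IM 18h, 4 at IM 6h, 8 at JTE 6h, 2 at JTE 18h, 2 at KCl 1h, 10 for IM 18h against 6h, 7 for JTE 18h against 6h, 1 for KCl 3h against 1h and 30 for IM 18h against JTE 18h in mRNA, and 35 at IM 18h and 3 at KCl 1h in nuclear RNA; more genes can pass without that limit. With upper quartile scaling 8 genes were called at IM 18h in mRNA and 6 against JTE 18h, and the medians were -0.25 (mRNA) and -0.28 (nuclear) at IM 18h and -0.03 at JTE 18h. Without the filter the median was -0.41 at IM 18h in mRNA, -0.39 against JTE 18h, -0.072 for JTE 18h against 6h and -0.06 at nuclear KCl 1h, and 3 genes were called at JTE 6h. With only the compared libraries fitted the medians were -0.36 at IM 18h in mRNA, -0.079 for JTE 18h against 6h and -0.072 at nuclear KCl 1h. Thinned counts gave -0.083 for JTE 18h against 6h and -0.014 at nuclear KCl 1h, where DESeq2 and RLE scaling each gave -0.012. DESeq2 called 1 gene at JTE 1h in mRNA. With the replicate number as a block 1 gene (U2AF1) was called at JTE 1h and 13 at IM 18h in mRNA, both as numbered and with CTRL 1 and 2 exchanged, and 16 at IM 18h in nuclear RNA; in each of these comparisons and the others with calls, the block changed no call of a member but those of U2AF1 and SF3B5. Leaving out 1 library at a time gave 8 to 17 calls at IM 18h in mRNA (8 without CTRL replicate 1), 15 to 17 in nuclear RNA, 0 to 1 at IM 6h (1 without CTRL replicate 2), 0 to 1 at JTE 1h, 0 to 4 at JTE 6h (0 without its replicate 1), 0 to 3 for IM 18h against 6h (3 without IM 6h replicate 3), 0 to 1 for KCl 3h against 1h and 3 to 12 for IM 18h against JTE 18h (3 without IM 18h replicate 1). The medians then ranged from -0.37 to -0.31 at IM 18h, -0.29 to -0.16 for IM 18h against 6h, -0.108 to -0.023 at JTE 18h and -0.155 to -0.054 for JTE 18h against 6h in mRNA, and from -0.42 to -0.30 at IM 18h and -0.067 to -0.013 at KCl 1h in nuclear RNA. Shares of all genes are not given here for the counts under these alternatives, so those counts cannot be set beside a background. The causes of these shifts were not tested. U2AF1 is limited by few counts and by its near-identical copy, and SNRNP35 by exonic bases shared with RILPL1.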
